A study of Mus musculus with 6 samples.

Results

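Immunoglobulin variable (V) gene segments are the germline pieces that encode most of the antigen-binding part of an antibody, and their transcripts were read here from bulk RNA sequencing of mouse hearts on day 7 post-MI. The members were all genes that the deposited table annotates with the biotype IG_V_gene, which gave 218 of the 54532 listed genes. By name, 113 of them belong to the heavy chain family (Ighv, chromosome 12), 100 to the kappa light chain family (Igkv, chromosome 6) and 3 to the lambda light chain family (Iglv, chromosome 16). The other 2, Gm42543 and Gm43218, carry no family name, lie on chromosome 6 and had 0 fragments in every library. Hearts of 3 WT mice and 3 Crlf2-/- mice were compared, with 1 library per mouse. All 6 mice were C57BL/6 by label and had undergone ligation of the left anterior descending coronary artery. The WT mice were bought as adult males, the TSLPR knockout line was generated by another company, and whether the groups were littermates is not given in the sources used here. Crlf2 encodes TSLPR, the receptor chain that binds thymic stromal lymphopoietin (TSLP), and the study asked how TSLP/TSLPR signaling shapes immune cells in the infarcted heart. The deposited FPKM, which correct fragment numbers for the size of the gene and of the library, were turned back into fragments, the read pairs assigned to a gene. The libraries held from 18508646 to 19682428 fragments assigned to genes of the table, and were thus of similar depth.

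Before a B cell can make an antibody, it joins 1 V segment to a J segment, with a D segment between them in the heavy chain, and transcription from the promoter of the joined V segment then produces the antibody mRNA. A B cell and its descendants therefore transcribe few V segments, and plasma cells hold far more of this mRNA than resting B cells. The mix of V segments in a tissue depends on which B-lineage clones supply its antibody mRNA. B-1 cells are a B cell lineage of the body cavities whose receptors reuse a small number of germline V segments. Sequences were read from the GENCODE M21 transcripts (GRCm38), which hold 218 of the 218 members at the same start, end and strand as the table, 216 of them with 2 exons, a leader exon and the V exon. The 5 heavy, 4 kappa and 2 lambda segments with most fragments over the 6 libraries carry the results below. Their last 84 germline bases, all in the V exon, are shown 5′ to 3′ on the coding strand because rearrangement joins the segment to D or J at this end.
Ighv7-1, chr12:113896408-113896491, minus strand: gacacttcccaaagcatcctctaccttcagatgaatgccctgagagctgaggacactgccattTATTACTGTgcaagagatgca
Ighv1-55, chr12:115208095-115208178, minus strand: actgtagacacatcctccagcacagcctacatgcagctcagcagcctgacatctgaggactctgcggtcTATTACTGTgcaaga
Ighv1-75, chr12:115833950-115834033, minus strand: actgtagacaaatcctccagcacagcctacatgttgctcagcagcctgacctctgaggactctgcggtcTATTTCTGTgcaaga
Ighv11-2, chr12:114048241-114048324, minus strand: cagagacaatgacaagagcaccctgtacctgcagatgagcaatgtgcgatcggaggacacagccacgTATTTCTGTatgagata
Ighv12-3, chr12:114366521-114366604, minus strand: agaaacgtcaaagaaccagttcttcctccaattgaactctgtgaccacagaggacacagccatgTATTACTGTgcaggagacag
Igkv12-89, chr6:68834846-68834929, minus strand: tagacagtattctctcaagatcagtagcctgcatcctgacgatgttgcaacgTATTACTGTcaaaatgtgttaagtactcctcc
Igkv14-126, chr6:67896559-67896642, plus strand: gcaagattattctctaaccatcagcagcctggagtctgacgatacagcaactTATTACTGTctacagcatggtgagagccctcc
Igkv15-103, chr6:68437842-68437925, plus strand: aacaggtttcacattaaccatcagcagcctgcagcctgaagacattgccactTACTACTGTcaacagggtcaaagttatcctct
Igkv4-91, chr6:68768555-68768638, minus strand: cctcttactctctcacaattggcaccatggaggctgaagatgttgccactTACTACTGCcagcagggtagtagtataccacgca
Iglv1, chr16:19085017-19085100, minus strand: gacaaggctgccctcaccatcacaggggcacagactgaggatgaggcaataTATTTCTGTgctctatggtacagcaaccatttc
Iglv2, chr16:19260401-19260484, minus strand: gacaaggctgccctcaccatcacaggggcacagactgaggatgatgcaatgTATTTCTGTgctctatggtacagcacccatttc
The capitals mark TATTACTGT, TATTTCTGT, TACTACTGT or TACTACTGC, whose last codon is that of the conserved cysteine before the third complementarity-determining region, the most variable loop of the antibody. The 4 motifs were chosen after these 3′ ends had been read, and do not overlap each other. At least 1 of them was found on the coding strand of 162 of the 218 members (74.3%) and on the opposite strand of 1, and in 60 of 155 V pseudogenes (38.7%). Iglv1 and Iglv2 were 97.2% identical over their last 250 bases, Ighv1-55 and Ighv1-75 were 91.2% identical, and Igkv14-126 and Igkv4-91 were 66.8% identical. Windows of 100 bases that also occur in another V segment or V pseudogene were present in 86 members. The 132 members without such a window held 63.7% of all V fragments, among them Ighv7-1, Ighv12-3, Igkv12-89, Igkv14-126, Igkv15-103 and Igkv4-91. How the authors counted reads that fit several segments is not given in the sources used here, so values of near-identical segments are uncertain.

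V segment transcripts were scarcer in the hearts of Crlf2-/- mice in all 3 families. The 218 members together held 866, 1941 and 1878 fragments in the 3 WT libraries and 358, 56 and 124 in the 3 Crlf2-/- libraries. The groups did not overlap, and Crlf2-/- replicate 1 stood closest to WT. Scaled to fragments per 1000000 fragments on listed genes (FPM), the mean was 83.9 ± 33.1 FPM in WT against 9.56 ± 8.61 in Crlf2-/- mice (SD, n = 3 each), which was 8.77-fold lower. Without Crlf2-/- replicate 1 the difference was 17.8-fold. Sums over the members are given as a description with no p-value.

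Heavy chain segments held 267, 703 and 589 fragments in WT against 89, 9 and 42 in Crlf2-/- mice. Every WT library lay above every Crlf2-/- library, and the mean of 27.9 ± 12.4 FPM in WT was 11.2-fold that of Crlf2-/- mice, 2.49 ± 2.18 (SD, n = 3 each). Kappa segments held 546, 1186 and 1115 fragments in WT against 241, 40 and 74 in Crlf2-/- mice. Their means were 50.9 ± 19.3 and 6.31 ± 5.85 FPM (SD, n = 3 each), 8.08-fold apart and again with no overlap. Lambda segments held 53, 52 and 174 fragments in WT against 28, 7 and 8 in Crlf2-/- mice. Their means were 5.0 ± 3.81 and 0.762 ± 0.646 FPM (SD, n = 3 each), 6.56-fold apart. Leaving out Crlf2-/- replicate 1 raised the heavy, kappa and lambda differences to 20.8-fold, 17.1-fold and 12.8-fold, and leaving out WT replicate 3 lowered the lambda difference to 3.67-fold. In bulk tissue, fewer B-lineage cells and less antibody mRNA per cell cannot be told apart.

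**Figure D1:**
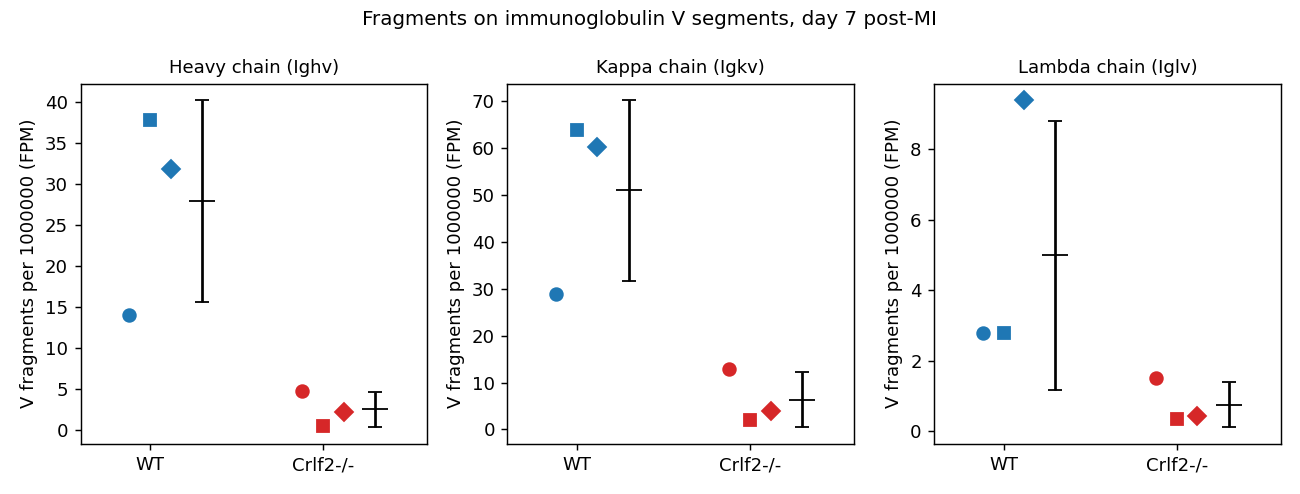
V segment fragments in FPM, fragments per 1000000 fragments on listed genes (vertical axes, a separate linear scale for each family) in WT and Crlf2-/- hearts. Each point is 1 library, with circle, square and diamond for replicates 1, 2 and 3, and the bars give the mean ± SD. All 3 families lay lower in Crlf2-/- libraries, and Crlf2-/- replicate 1 was the highest of its group, with 4.79 heavy, 13.0 kappa and 1.51 lambda FPM.

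The leading heavy chain segments differed from mouse to mouse. Ighv7-1, which in mice is known from antibodies to phosphorylcholine, had 4, 183 and 35 fragments in WT against 1, 0 and 2 in Crlf2-/- mice. Most of its fragments came from WT replicate 2. Ighv1-75 had 2, 175 and 0 fragments in WT against 2, 0 and 0 in Crlf2-/- mice, and was thus abundant in WT replicate 2 alone among the 6 libraries. Ighv1-55 had 5, 40 and 168 fragments in WT and was at 0 in all 3 Crlf2-/- libraries. It led the heavy chain in WT replicate 3. Ighv11-2 had 1, 14 and 64 fragments in WT against 14, 0 and 3 in Crlf2-/- mice, with overlapping groups. Ighv12-3 had 6, 12 and 58 in WT against 0, 0 and 1 in Crlf2-/- mice, with no overlap. The next segments were lower and more even. Ighv1-64 had 11, 23 and 4 fragments in WT against 3, 1 and 0 in Crlf2-/- mice. Ighv1-76, with 14, 5 and 23 fragments, and Ighv9-3, with 12, 20 and 9, were both seen in every WT library and at 0 in every Crlf2-/- library. WT replicate 1 was led by Ighv1-18, which had 22, 11 and 4 fragments in WT against 0 in all Crlf2-/- libraries. Crlf2-/- replicate 3 was led by Ighv6-3, with 1, 4 and 7 fragments in WT against 7, 0 and 9 in Crlf2-/- mice. In Crlf2-/- replicate 2, Ighv3-6, Ighv2-6 and Ighv7-3 shared the lead with 2 fragments each, so its order of segments carries little information.

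Kappa segments held the largest single values. Igkv12-89 had 4, 335 and 248 fragments in WT against 2, 0 and 0 in Crlf2-/- mice. A count of 0 among the 40 and 74 kappa fragments of Crlf2-/- replicates 2 and 3 allows shares up to 7.50% and 4.05%. These limits cover counting error only. The share of Igkv12-89 in WT replicates 2 and 3 was 28.2% and 22.2%, the values that made it the leading segment. In WT replicate 1 it had only 4 of 546 kappa fragments, and in Crlf2-/- replicate 1 it had 2 of 241. Low shares were thus not limited to Crlf2-/- mice. Igkv14-126 had 28, 77 and 305 fragments in WT against 69, 7 and 16 in Crlf2-/- mice. It was detected in every library and its groups overlapped, because Crlf2-/- replicate 1 lay above WT replicate 1. Igkv15-103 had 22, 244 and 36 fragments in WT against 3, 2 and 0 in Crlf2-/- mice, with the WT total mostly from replicate 2. Igkv4-91 had 33, 56 and 131 fragments in WT against 29, 1 and 1 in Crlf2-/- mice. Its lowest WT library and highest Crlf2-/- library differed by only 4 fragments. Igkv10-96 had 59, 19 and 27 in WT against 12, 1 and 1 in Crlf2-/- mice, and led WT replicate 1. Igkv1-110 had 35, 17 and 33 in WT against 10, 0 and 0 in Crlf2-/- mice. Igkv1-117 had 15, 34 and 51 in WT against 10, 3 and 11 in Crlf2-/- mice. Igkv14-111 had 5, 30 and 54 in WT against 2, 0 and 2 in Crlf2-/- mice. None of the last 4 segments overlapped between groups. Igkv1-133 went the other way, with 0, 1 and 1 fragments in WT against 0, 0 and 19 in Crlf2-/- mice, all of the latter from replicate 3, which it led. A second segment of this kind, noticed after the values were seen, was Igkv3-1, with 2, 3 and 1 fragments in WT against 24, 0 and 0 in Crlf2-/- mice.

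Mice carry few lambda V segments, and all 3 were detected. Iglv1 had 41, 41 and 132 fragments in WT against 13, 5 and 7 in Crlf2-/- mice, with no overlap. Iglv2 had 6, 6 and 36 in WT against 12, 2 and 1 in Crlf2-/- mice, and its groups overlapped. Iglv3 had 6, 5 and 6 in WT against 3, 0 and 0 in Crlf2-/- mice. Iglv1 took 77.4%, 78.8% and 75.9% of lambda fragments in WT, and 46.4%, 71.4% and 87.5% in Crlf2-/- mice, where only 28, 7 and 8 fragments stand behind the shares. Iglv1 overlaps a listed antisense gene, 2010309G21Rik, and without strand information their reads cannot be told apart. Among light chain V fragments, lambda made up 8.85%, 4.20% and 13.5% in WT and 10.4%, 14.9% and 9.76% in Crlf2-/- mice, so the groups overlapped in their light chain usage.

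**Figure D2:**
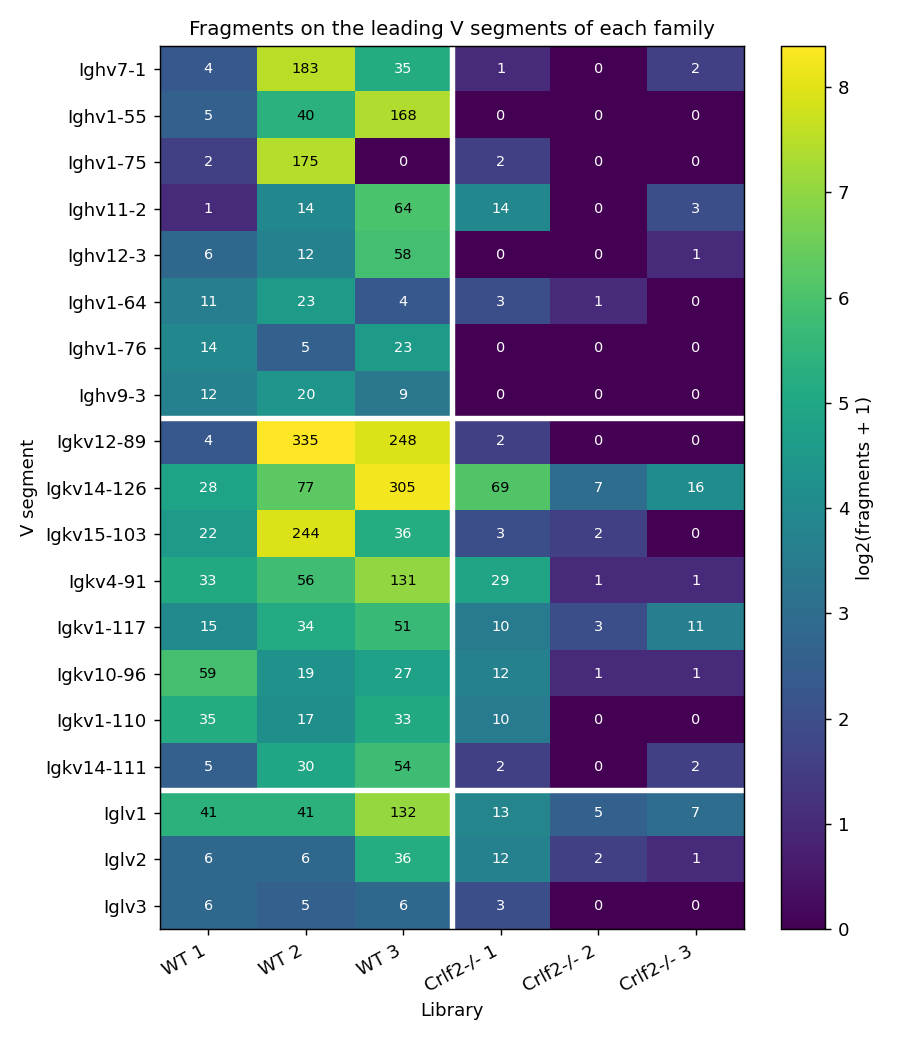
Fragments on the 8 heavy and 8 kappa segments with most fragments over the 6 libraries and on the 3 lambda segments (rows) in each library (columns). Each cell prints the fragment number and its color gives log2(fragments + 1). Igkv12-89 reached 335 and 248 in WT replicates 2 and 3 and at most 4 in any other library.

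Segment by segment, few members had enough fragments to be tested. Only genes with 10 or more fragments in 3 or more libraries entered the test, which was run with limma on log2(FPKM + 0.1) with Benjamini-Hochberg adjustment over all 15520 genes tested. Calls required an adjusted p no higher than 0.05 together with a log2 fold change of 0.5 or more in size, which 0.0129% of tested genes met. The study tested counts with DESeq2 at the same 2 thresholds and reported many more genes. The input and the test both differ, and the source of this gap was not tested. Of the 218 members, 10 were tested and 0 were called by limma, while 8 of the 10 had an unadjusted p under 0.05, as did 6.56% of all tested genes. With limma's voom on the fragments 0 were called as well. Log2 fold changes on the log2(FPKM + 0.1) scale, which understates changes of low genes, had the smallest p for Iglv1 (-2.86 ± 0.503 (SE), limma adjusted p = 0.15), Igkv15-103 (-4.84 ± 0.945, limma adjusted p = 0.234) and Igkv19-93 (-3.41 ± 0.712, limma adjusted p = 0.248). Igkv19-93 had 14, 14 and 20 fragments in WT against 5, 0 and 0 in Crlf2-/- mice. The other 7 tested members ran from -3.80 for Igkv4-91 to -1.68 for Ighv11-2, the only heavy chain segment tested. No tested member had a positive log2 fold change, but a segment that is low in Crlf2-/- mice could pass the filter only where its WT values were high. The outcome depended on 1 library. Without Crlf2-/- replicate 1, limma called 5 kappa segments, all lower in Crlf2-/- mice, namely Igkv10-96, Igkv4-91, Igkv1-110, Igkv1-135 and Igkv19-93, with adjusted p between 0.00635 and 0.0497. These were 5 of 9 members tested in that fit, in which 17 genes (0.111% of 15313) were called. Igkv1-110 and Igkv19-93, with the smallest adjusted p, had 0 fragments in each remaining Crlf2-/- library. Their Crlf2-/- values were thus set by the added 0.1 and showed no spread. The others had 0 or 1 fragments in each of these libraries, so all of these calls rest on values at or near the floor. With no filter on low genes limma called Ighv9-3 (log2 fold change -4.14, limma adjusted p = 0.0319) and Ighv1-80 (-3.25, limma adjusted p = 0.0322), 2 of 159 members, beside 6 genes (0.0224% of 26815) in all. Ighv9-3 had 12, 20 and 9 fragments in WT and Ighv1-80 had 6, 8 and 6. Each was at 0 in every Crlf2-/- library, so the size of these fold changes depends on the added 0.1 and the Crlf2-/- values had no spread.

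The same fragments were also compared segment by segment without a model. Of the 159 members with at least 1 fragment, 49 (30.8%) had every Crlf2-/- library below every WT library, while 4.81% of all 26815 genes with fragments did. Every Crlf2-/- library lay above every WT library for 0 members, against 4.27% of genes. A member could lie below only with fragments in all 3 WT libraries, which 70 had. It could lie above only with fragments in all 3 Crlf2-/- libraries, which 10 had. The members also share the same 6 libraries, so these counts largely restate the lower totals and are not separate support for them. The 49 comprised 23 of 82 heavy, 24 of 74 kappa and 2 of 3 lambda segments. The other 110 overlapped between groups. Of the 159, 79 had fewer than 10 fragments over all 6 libraries.

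The number of segments detected fell with the fragments. At least 1 fragment was found on 110, 125 and 105 of the 218 members in WT and on 60, 30 and 37 in Crlf2-/- mice. In WT these were 53, 60 and 52 heavy and 54, 62 and 50 kappa segments, and in Crlf2-/- mice 24, 6 and 17 heavy and 33, 22 and 18 kappa segments. The groups did not overlap in either family. Over all libraries 59 members were never seen, 81 were seen in WT only, 73 in both groups and 5 in Crlf2-/- mice only. The last 5, named after their values were seen, had few fragments and each came from 1 library: Ighv1-23 with 6, Ighv1-62-2 with 4, Igkv4-59 with 3, and Ighv14-4 and Igkv12-41 with 2. Of Ighv1-71, itself at 0, 96.9% of the 100-base windows also occur in another V segment, and its nearest relative was Ighv1-62-2. There were 22 segments (13.8% of the 159) with fragments in all 3 WT libraries and 0 in all 3 Crlf2-/- libraries, a pattern held by 0.324% of the 26815 genes. The reverse pattern was held by 0 segments and by 0.272% of genes. It needs fragments in all 3 Crlf2-/- libraries, which only 10 members had, so this contrast also follows the totals. No heavy chain segment was present in all 6 libraries, whereas 6 kappa segments, Igkv14-126, Igkv10-96, Igkv4-91, Igkv1-117, Igkv10-94 and Igkv16-104, and 2 lambda segments, Iglv1 and Iglv2, were.

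At equal depth the number of segments no longer separated the groups. When the V fragments of each library were thinned to 56, the total of the smallest library, 36.4, 26.3 and 24.6 segments were expected in WT and 27.8, 30.0 and 25.0 in Crlf2-/- mice. The means of 29.1 ± 6.38 and 27.6 ± 2.52 (SD, n = 3 each) differed by less than the spread between replicates. For the heavy chain, thinned to 9 fragments, they were 6.80 ± 1.07 and 6.68 ± 0.652, and for kappa, thinned to 40, 17.7 ± 4.55 and 17.3 ± 4.23 (SD, n = 3 each). The small totals of Crlf2-/- replicates 2 and 3 set this depth and limit how small a difference could be seen.

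Single segments dominated in some mice of both groups. In the kappa chain the leading segment held 10.8%, 28.2% and 27.4% of fragments in WT (Igkv10-96, Igkv12-89 and Igkv14-126) and 28.6%, 17.5% and 25.7% in Crlf2-/- mice (Igkv14-126, Igkv14-126 and Igkv1-133). The 95% exact Clopper-Pearson intervals were 8.33% to 13.7%, 25.7% to 30.9% and 24.8% to 30.1% in WT, and 23.0% to 34.8%, 7.34% to 32.8% and 16.2% to 37.2% in Crlf2-/- mice. These intervals cover counting error only. In the heavy chain the leading segment held 8.24%, 26.0% and 28.5% in WT and 15.7%, 22.2% and 21.4% in Crlf2-/- mice, the last 3 from 89, 9 and 42 fragments. The means were 20.9% ± 11.1 and 19.8% ± 3.54 for heavy, and 22.1% ± 9.82 and 23.9% ± 5.77 for kappa (SD, n = 3 each), within the spread between replicates. WT replicate 1 was the most even library. In it 11 heavy and 9 kappa segments were needed to reach 50 percent of fragments, compared with 2 and 3 in WT replicate 2 and 4 and 3 in WT replicate 3. Drawn as pairs, 2 kappa fragments fell on the same segment in 3.94% of pairs in WT replicate 1, 13.3% and 14.6% in WT replicates 2 and 3, and 11.7%, 4.62% and 13.5% in Crlf2-/- mice. Gene lengths of the 16 leading heavy and kappa segments ran from 338 to 461 bases, and shares of summed FPKM, which correct for length, moved the group differences in top share by under 1 percentage point.

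**Figure D3:**
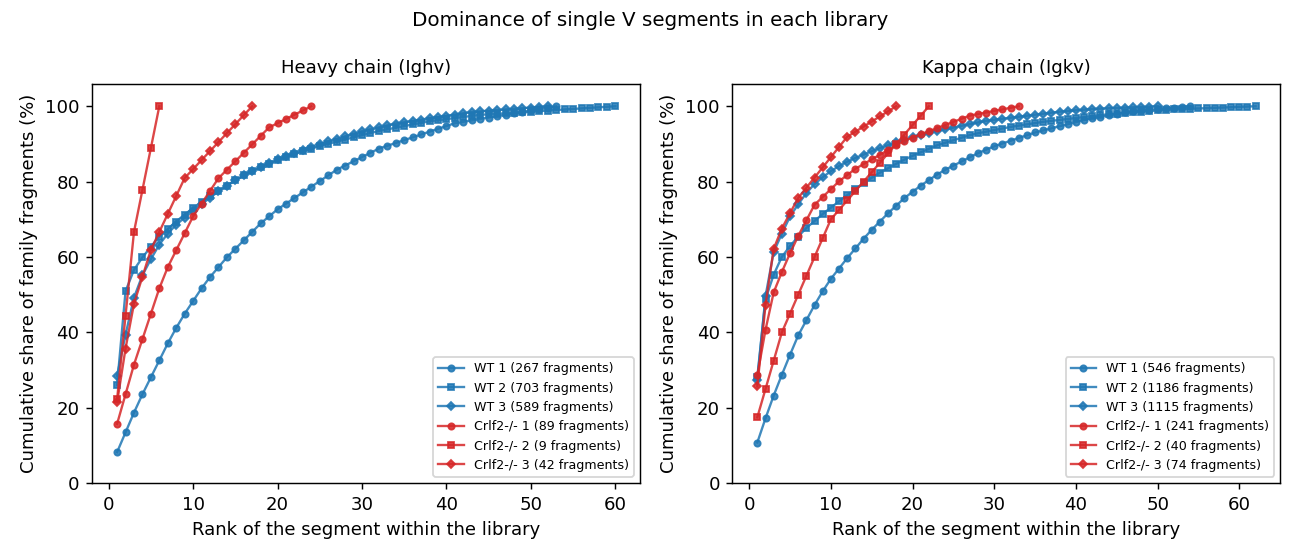
Cumulative share of family fragments (vertical axes, percent) against the rank of the segment within its library (horizontal axes) for heavy and kappa segments. Lines are libraries, blue for WT and red for Crlf2-/-, with fragment totals in the legend. WT replicate 1 rises slowest, starting from 8.24% heavy and 10.8% kappa, and the Crlf2-/- lines end early because few segments were detected.

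Subgroups, the sets of related segments that share the first number of their names, were also unevenly used. Ighv1, the largest mouse heavy chain subgroup with 53 members, held 55.8%, 53.5% and 46.9% of heavy V fragments in WT and 33.7%, 22.2% and 31.0% in Crlf2-/- mice. Its share was thus lower in every Crlf2-/- library, although the 22.2% rests on 2 of 9 fragments. Ighv9 held 25, 26 and 13 fragments in WT against 0 in each Crlf2-/- library. Its WT shares were 9.36%, 3.70% and 2.21%. A count of 0 among the 89, 9 and 42 heavy fragments of Crlf2-/- mice allows shares up to 3.37%, 33.3% and 7.14%, which reach into the WT range. Ighv6 held 5, 7 and 13 in WT against 13, 0 and 9 in Crlf2-/- mice, so its fragment numbers overlapped while its family declined. In the kappa chain, Igkv14 took 6.23%, 9.19% and 32.2% in WT and 29.5%, 17.5% and 24.3% in Crlf2-/- mice, with overlap. Igkv12 took 3.66%, 29.4% and 22.5% in WT and 2.90%, 0% and 5.41% in Crlf2-/- mice. These are descriptions of subgroups looked at together and none was tested.

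Fragments came from the whole length of both loci. Ordered by distance from the J segments, the nearest 37 heavy segments (149 to 824 kb) held 30.7%, 40.3% and 31.1% of heavy V fragments in WT and 43.8%, 55.6% and 45.2% in Crlf2-/- mice. The farthest 38 (1594 to 2570 kb) held 37.8%, 45.7% and 45.2% in WT and 25.8%, 22.2% and 9.52% in Crlf2-/- mice. Neither the near nor the far share overlapped between groups, with 39, 5 and 19 and with 23, 2 and 4 fragments behind the Crlf2-/- values, and the differences were not tested. The middle share overlapped, with 31.5%, 14.1% and 23.8% in WT and 30.3%, 22.2% and 45.2% in Crlf2-/- mice. The shares depend on each other. The far part holds only Ighv1 and Ighv8 segments, so its lower share and that of Ighv1 are not separate observations. In kappa, the farthest 34 segments (1887 to 3167 kb) held 54.2%, 79.8% and 86.5% in WT and 69.3%, 60.0% and 81.1% in Crlf2-/- mice, with overlap. All 4 leading kappa segments lie in this far part, Igkv12-89 at 1887 kb and Igkv14-126 at 2826 kb from the J segments. Kappa V segments lie in either orientation, and 30 of 38 on the plus strand and 44 of 62 on the minus strand had fragments.

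**Figure D4:**
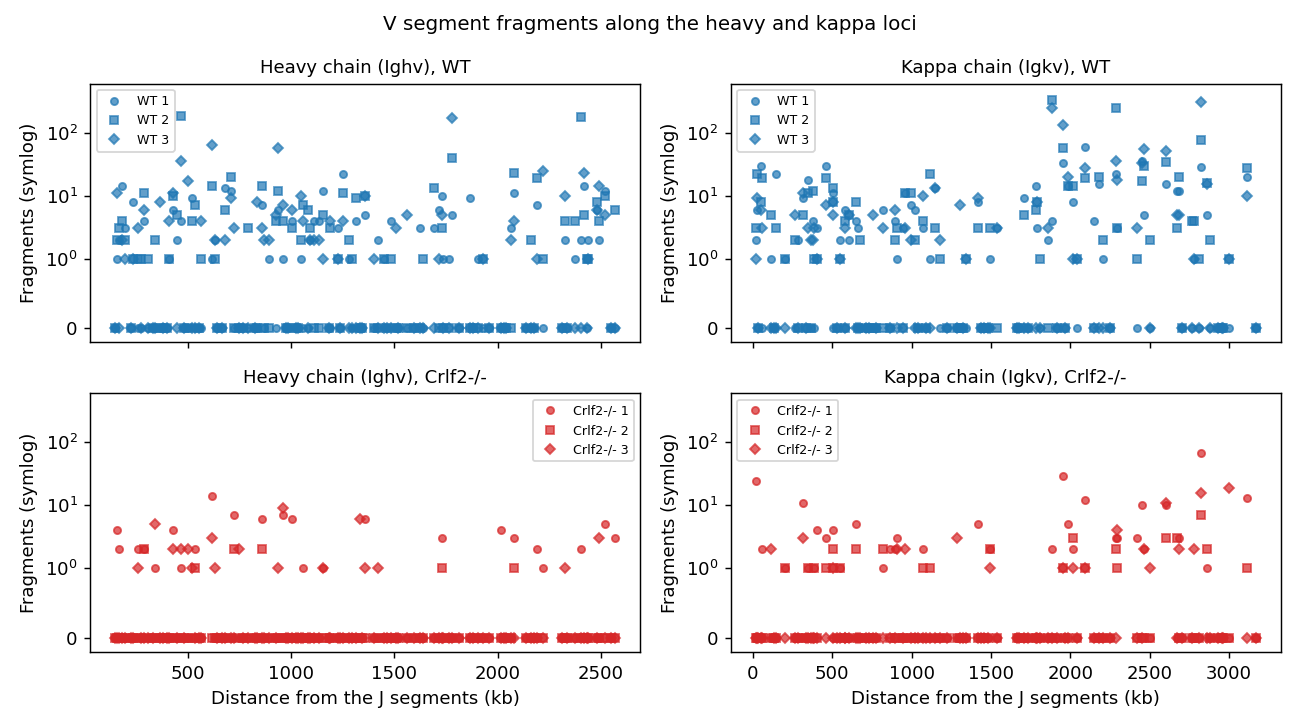
Fragments on each heavy and kappa V segment (vertical axes, symmetric log scale, linear below 1) against its distance from the J segments in kb (horizontal axes), WT above and Crlf2-/- below. Each point is 1 segment in 1 library. Values above 100 occur only in WT, on Ighv7-1, Ighv1-55 and Ighv1-75 and on 4 kappa segments at 1887 kb or more.

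Known receptors of B-1 cells use few germline segments. Antibodies to phosphatidylcholine typically pair Ighv11-2 with Igkv14-126 or Ighv12-3 with Igkv4-91, and these 4 segments were put together after their values had been seen. They held 68, 159 and 558 fragments in WT against 112, 8 and 21 in Crlf2-/- mice, which was 7.85%, 8.19% and 29.7% of all V fragments in WT and 31.3%, 14.3% and 16.9% in Crlf2-/- mice. The shares overlapped between the groups and were highest in WT replicate 3 and Crlf2-/- replicate 1. Both of these libraries were high in the heavy pair, 20.7% and 15.7% of heavy V fragments, and in the light pair, 39.1% and 40.7% of kappa V fragments. In Crlf2-/- replicate 2 the heavy pair had 0 of 9 fragments, which allows a share of up to 33.3%. Bulk libraries do not show which heavy and light chains were made in the same cell. The remaining V segments, without these 4, held 798, 1782 and 1320 fragments in WT against 246, 48 and 103 in Crlf2-/- mice.

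The constant genes, which encode the other part of the same antibody mRNA, gave 10 tested genes, 9 with lower and 1 with higher log2 fold changes. The filter limits this count too. Ighg2c and Ighg3 reached 10 fragments in no Crlf2-/- library and passed through WT alone. Ighg1, with 30 fragments in Crlf2-/- replicate 2, was not tested. Of the 10 tested, the 1 called was Ighg2b, the constant gene of an IgG subclass, with 157, 138 and 151 fragments in WT against 5, 16 and 7 in Crlf2-/- mice (log2 fold change -3.42 ± 0.267 (SE), limma adjusted p = 0.0088). That call was lost without WT replicate 1, WT replicate 2 or Crlf2-/- replicate 3 (limma adjusted p = 0.0542, 0.0737 and 0.11). Ighd, the constant gene of IgD, had 31, 52 and 52 fragments in WT against 76, 50 and 29 in Crlf2-/- mice (log2 fold change 0.10, limma adjusted p = 0.995). Igkc, the constant gene of kappa, had 1304, 2948 and 2620 fragments in WT against 480, 153 and 161 in Crlf2-/- mice, and its log2 fold change was -3.27 ± 0.498 (SE, limma adjusted p = 0.129, and 0.0232 without Crlf2-/- replicate 1). Ighm, the constant gene of IgM, had 983, 5868 and 5769 in WT against 1577, 917 and 893 in Crlf2-/- mice, with overlapping groups and a log2 fold change of -1.59 ± 0.728 (SE, limma adjusted p = 0.805). Igha, the constant gene of IgA, had 1394, 992 and 335 in WT against 11, 36 and 51 in Crlf2-/- mice, and its log2 fold change was -4.53 ± 0.576 (SE, limma adjusted p = 0.0814). Per 100 constant-gene fragments, kappa V segments had 41.9, 40.2 and 42.6 fragments in WT against 50.2, 26.1 and 46.0 in Crlf2-/- mice, so V and constant parts of the kappa mRNA were low together and their ratio overlapped. The heavy chain ratio did not overlap, with 9.50, 9.57 and 9.19 heavy V fragments per 100 heavy constant-gene fragments in WT and 5.30, 0.856 and 4.22 in Crlf2-/- mice. Ighm made up 35.0%, 79.9% and 90.0% of heavy constant-gene fragments in WT and 93.9%, 87.2% and 89.7% in Crlf2-/- mice. WT replicate 1, the most even library in V segments, was also the one in which Igha led, with 49.6% of heavy constant-gene fragments. Its heavy V to constant ratio was close to those of WT replicates 2 and 3.

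**Figure D5:**
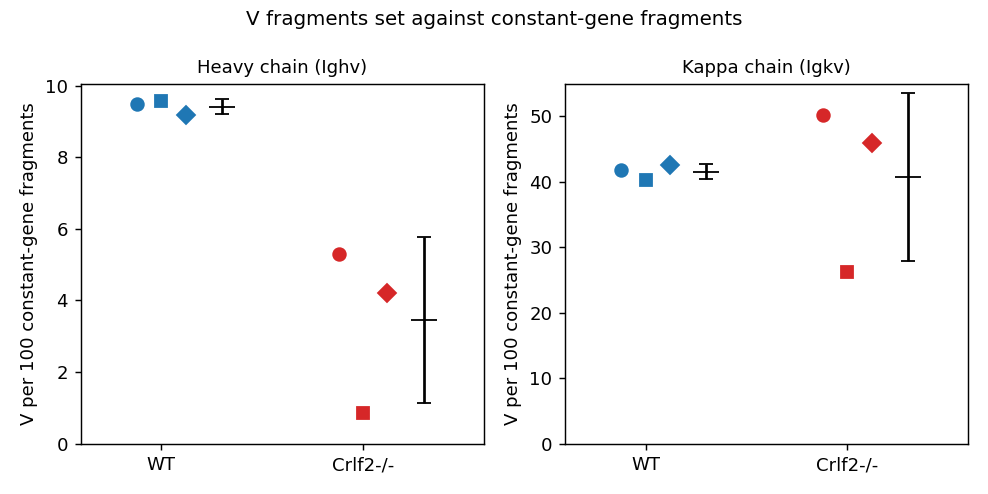
V fragments per 100 constant-gene fragments (vertical axes, starting at 0) for the heavy chain (all Igh constant genes) and kappa (Igkc). Points are libraries, with circle, square and diamond for replicates 1, 2 and 3, and bars give the mean ± SD. The heavy ratio was 9.42 ± 0.201 in WT against 3.46 ± 2.32 in Crlf2-/- libraries, and the kappa ratios of 41.6 ± 1.20 and 40.8 ± 12.8 overlapped.

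V pseudogenes, which encode no antibody, were almost silent: 7 of 155 (4.52%) had any fragment, 10 fragments in all, beside 159 of 218 members (72.9%) and 5223 fragments. J segments, the short pieces next to the V segment in the joined gene, had 21, 6 and 26 fragments in WT against 12, 4 and 4 in Crlf2-/- mice. Of 7 genes of V(D)J joining and immature B cells, 0 passed the filter and 3 were at 0 in every library. The joining enzyme gene Rag1 had 0, 0 and 1 fragments in WT against 5, 0 and 0 in Crlf2-/- mice and Rag2 had 0 in every library. Others of the list were low but present. Vpreb3 had 4, 0 and 3 fragments in WT against 3, 9 and 3 in Crlf2-/- mice. Dntt had 4, 4 and 3 against 2, 4 and 2, and Vpreb1 had 10, 2 and 0 against 1, 2 and 0.

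B cell surface and identity genes were not lower as a group. Of 14 such genes tested, 10 had higher and 4 lower log2 fold changes, 0 were called by limma and the median log2 fold change was 0.09, beside a median of -0.0044 over all genes tested. Their summed fragments were 1397, 1536 and 1719 in WT against 1893, 1530 and 1625 in Crlf2-/- mice. Most of that sum came from Ebf1, which is not limited to B cells. Cd79a, part of the B cell receptor complex, had 34, 50 and 33 fragments in WT against 71, 35 and 24 in Crlf2-/- mice. Of 12 plasma cell genes tested outside the immunoglobulins, 6 had higher and 6 lower log2 fold changes and 0 were called. Among them were Jchain, which links IgM and IgA units, with 388, 1033 and 926 fragments in WT against 97, 26 and 33 in Crlf2-/- mice (log2 fold change -3.88, limma adjusted p = 0.112), and Mzb1, an antibody-folding factor of the endoplasmic reticulum, with 36, 25 and 37 in WT against 9, 2 and 3 in Crlf2-/- mice (log2 fold change -2.51, limma adjusted p = 0.112). Log2 fold changes of the other lower genes ran from -1.27 for Derl3 to -0.34 for Xbp1. Those of the 6 higher genes ran only from 0.02 for Prdm1 to 0.30 for Fkbp11. Txndc5, with the most fragments of that list, had between 8642 and 10922 in every library. Of 5 germinal centre genes tested, 1 had a higher and 4 a lower log2 fold change and 0 were called.

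Other differences between the libraries stood beside these results. The 6 heart muscle genes, which mark the labelled tissue and were plentiful in every library, had 49922 to 89929 fragments in WT against 35606 to 66915 in Crlf2-/- mice, with 6 of 6 lower in Crlf2-/- mice and a median log2 fold change of -0.93, and 0 called. Lymph node stroma genes, 2 of 5 tested and 0 called, summed to 225, 191 and 353 fragments in WT against 40, 246 and 64 in Crlf2-/- mice. Ccl21a of that list had 178, 52 and 10 fragments in WT against 5, 205 and 6 in Crlf2-/- mice. Cxcl13, the other one tested, had 45, 135 and 343 in WT against 34, 35 and 58 in Crlf2-/- mice. Both overlapped between groups. The part of tissue sampling in the V segment totals was not tested. Crlf2 itself had 917, 813 and 707 fragments in WT against 437, 651 and 667 in Crlf2-/- mice (log2 fold change -0.52, limma adjusted p = 0.514). Its transcripts were thus still counted in knockout libraries, the table cannot tell from which exons, and the groups follow the labels.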

How the data were processed

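The libraries were made by poly-T selection from infarcted and border tissue of the hearts of 3 WT and 3 Crlf2-/- mice and paired-end sequencing; an extraction protocol in the sample labels names another tissue, while the tissue label and the paper say heart. Reads were aligned with HISAT2 2.0.5 per the labels, which list the builds mm10 and hg38, and fragments per gene were counted with featureCounts. The authors deposited FPKM for each gene and library; their counts were not used here. FPKM multiplied by the deposited gene length were whole multiples of 1 step per library for 100% of nonzero values (tolerance 0.05 of a step), and these multiples are the fragments used. Fragments assigned to a V segment are those aligned to its germline sequence.

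For the test across all genes, FPKM were scaled with trimmed mean of M values factors computed on the fragments, and log2(FPKM + 0.1) was fitted with limma 3.58.1 in R 4.3.3 (lmFit, eBayes with trend and robust), keeping genes with 10 or more fragments in 3 or more libraries and 15 or more in total. The 2 thresholds for a call are those of the study. On simulated fragments with 200 changed genes among 15570 tested, 215 genes were called, 200 of them changed. With no changed gene, 0 of 15602 were called. The changed genes were drawn only from genes with more fragments than most V segments, with large changes and little spread between libraries. The simulation therefore does not show how often changed V segments are missed. Sums, detection, thinned detection (the hypergeometric expectation) and shares were computed in Python 3.11.15 with no p-value. Segments named were those leading a library, the 8 with most fragments in a family, those called, and the 3 of smallest p in each direction. Marker lists were for B cells, plasma cells, V(D)J recombination, germinal centre, lymph node stroma and heart muscle. Members, lists and rules were chosen with earlier results of these data known. P-values rest on the spread between the 3 mice of a group, which limma moderates toward a trend over all tested genes. The table held 0 columns of other samples.

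Replicate numbers recur in both groups. Deviations from the group means correlated at -0.02, 0.12 and 0.12 for numbers 1, 2 and 3, and the mice were therefore treated as unpaired.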

Additional observations from a re-analysis of the deposited data

How the results depend on the processing

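Fragment ratios between Crlf2-/- and WT kept their direction under every alternative run. Leaving out 1 library each, their log2 values ran from -4.15 to -2.70 for all V segments, -4.38 to -2.99 for heavy, -4.10 to -2.59 for kappa and -3.68 to -1.87 for lambda segments. Without Iglv1, which leads every library, the lambda ratio was -1.86, and without the 4 B-1 receptor segments, an alternative chosen after seeing the data, the ratio of all V segments was -3.31. Limma called 0 V segments in the main analysis, 0 with pseudocounts of 1 or 0.01, without scaling, or with voom, 2 of 159 with no filter (6 of 26815 genes), and 0 to 5 when 1 library was left out, the 5 of 9 being without Crlf2-/- replicate 1 (17 of 15313 genes). A filter of 10 fragments in each of the 6 libraries left 0 members to test. Over the alternatives, the limma adjusted p ran from 0.123 to 0.482 for Iglv1, from 0.252 to 0.59 for Igkv15-103, and from 0.00635 to 0.9995 for the 5 kappa segments called without Crlf2-/- replicate 1. With the replicate block 0 were called, as without it, with 4 genes called in all against 2.

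The difference in segments detected (Crlf2-/- minus WT) was -71.0 for all, -39.3 for heavy, -31.0 for kappa and -0.667 for lambda segments. At 5 fragments or more it was -46.7 for all, -19.7 for heavy and -1.67 for lambda, and at 2 or more -1.0 for lambda. After thinning it was -1.52 for all, -0.122 for heavy, -0.428 for kappa and 0.0367 for lambda. Leaving out 1 library gave -79.8 to -64.8 for all, -43.5 to -34.5 for heavy, -35.3 to -27.7 for kappa and -1.0 to -0.500 for lambda. The difference in top-segment share (percentage points) was -1.14 for heavy, 1.80 for kappa and -8.90 for lambda, smaller than the spread between replicates, and its sign changed with some settings. For heavy segments the top 3 gave 7.06, and leaving out 1 library gave -7.48 to 2.66, for kappa -3.86 to 5.02 and for lambda -18.4 to 2.11. Depth limits all shares of Crlf2-/- replicate 2, which held 56 V fragments.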
